A study of Homo sapiens with 6 samples.

Results

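The genes described here are the receptor chains for interferon-γ and a set of genes known to lie downstream of them. They are IFNGR1, IFNGR2, IRF1, IRF2, GBP1, GBP2, GBP3, GBP4, CIITA and CD74, taken by name from the gene tables, so they are 10 of 47432 genes. RNA-seq was done on LOX-IMVI, an established human melanoma line grown in culture. The cells had been transduced with a lentiviral short hairpin RNA (shRNA), either a control (shCtrl, 3 libraries) or one against NFKBIZ (shNFKBIZ, 3 libraries). NFKBIZ encodes IκBζ, a nuclear co-regulator of NF-κB target genes. Both groups carried an integrated construct, 1 hairpin sequence targeted NFKBIZ, and no interferon treatment is named in the labels. The comparison asks how the RNA of these genes differed after knockdown of NFKBIZ.

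Interferon-γ binds a receptor built from IFNGR1, which holds the ligand, and IFNGR2, which is needed for signalling. The receptor activates the kinases JAK1 and JAK2, and signalling reaches target promoters through GAS elements. Early targets include IRF1, an activator that binds ISRE elements, while IRF2 can occupy the same elements as a repressor. Later targets include the guanylate-binding proteins (GBPs), GTPases that attack vacuoles of intracellular pathogens, and CIITA, the master activator of MHC class II genes such as CD74, the invariant chain. NF-κB also acts at several of these promoters, IRF1 among them.

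Stretches of the RefSeq promoters are shown because they hold the elements through which the pathway is known to act. Each promoter runs from 250 bases before the annotated start to 50 bases after it (GRCh38.p14), and 7 of the 10 genes had an entry. The searches, on both strands, were for GAS (TTCNNNGAA), the ISRE core (GAAA, 2 bases of any kind, GAAA) and the κB core (GGG, 5 bases of any kind, CC). Capitals mark the match, and the sequences run 5′ to 3′ on the strand of the gene. The first 3 are from the GBPs and the last 3 from IRF1 and IFNGR2.
GBP1, ISRE core read on the opposite strand, chr1:89065316-89065345, minus strand: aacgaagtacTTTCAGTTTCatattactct
GBP3, GAS and then ISRE core read on the opposite strand, chr1:89022853-89022882, minus strand: cTTCCTTGAAagaagtacTTTCAGTTTCat
GBP4, ISRE core read on the opposite strand, chr1:89198927-89198956, minus strand: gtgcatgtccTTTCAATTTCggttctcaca
IRF1, GAS, chr5:132490878-132490907, minus strand: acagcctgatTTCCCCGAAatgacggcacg
IRF1, κB core, chr5:132490804-132490833, minus strand: ggccagggctGGGGAATCCCgctaagtgtt
IFNGR2, κB core, chr21:33403303-33403332, plus strand: ttcccggagcGGGAAAGTCCcgcgcggggg

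The GBP1 and GBP3 stretches share a run of 19 bases that contains the ISRE core. In GENCODE release 44 the 3 GBP stretches overlap an annotated exon, and those of IRF1 and IFNGR2 do not. The ISRE core was found in 3 of the 7 genes (GBP1, GBP3, GBP4) and in 3.57% of 34796 distinct promoters of that length. The GAS pattern searched for was found in 2 of the 7 (IRF1, GBP3) and in 7.67% of all promoters. GAS elements with other letters would be missed, so a gene without a match may still hold one. The κB core is short on fixed letters: 5 of the 7 genes held it, as did 58.6% of all promoters. IRF1 held 6 κB matches and IFNGR2 4, counted on both strands with overlapping matches included, and 1 of each is shown. A match is a description of letters and not of binding.

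Total exon reads per library ranged from 22264473 to 24624839. The targeted gene, NFKBIZ, had 1519, 1629 and 1674 exon reads in the shCtrl libraries and 474, 477 and 468 in the shNFKBIZ libraries, a difference of -1.78 on the log2 scale of shNFKBIZ over shCtrl, as for all log2 values here (SE 0.0581, edgeR adjusted P = 7.2e-17). Of 8 melanocyte markers, 5 had at most 3 reads in every library, and MLANA, SOX10 and S100B were at 0. Their summed level was 3.19 to 4.23 TPM (reads per base of exon, scaled to the same total in each library) with shCtrl and 1.79 to 2.62 with shNFKBIZ. Most of it was MITF (mean 3.21 TPM with shCtrl and 2.00 with shNFKBIZ, log2 fold change -0.77, edgeR adjusted P = 2.55e-05). The 5 markers of dedifferentiated melanoma summed to 447 to 492 TPM with shCtrl and 602 to 614 with shNFKBIZ. Most of this sum was AXL (mean 407 TPM with shCtrl and 486 with shNFKBIZ, log2 fold change 0.17). SOX9 (1.27) and EGFR (0.66) were also higher, while NGFR and NES had too few reads for the test. Of 12 leukocyte and antigen-presenting cell markers, 7 had at most 3 reads in every library, and CD3E and MS4A1 were among those at 0. Their sum was 96.8 to 101 TPM with shCtrl and 198 to 201 with shNFKBIZ, nearly all of it CD68, a lysosomal gene that many cell types express. Of the CD68 reads 6.61% mapped to 1 place, and on those its log2 value was 0.97 (edgeR adjusted P = 3.12e-09), beside 0.93 on all exon reads. The 3 endothelial markers had at most 3 reads each. The part of these differences in the results was not tested, and in bulk RNA fewer expressing cells and less RNA per cell cannot be told apart.

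IRF2, GBP1 and GBP2 fell on knockdown of NFKBIZ, and no gene of the 10 rose past the threshold. The threshold was an adjusted P of at most 0.05 in the edgeR test and at least a 2-fold change. Of all genes tested, 5.12% passed it downwards and 3.84% upwards. With no limit on the fold, 4 of the 8 genes tested were lower (IFNGR1, IRF2, GBP1, GBP2) against 32.8% of all genes tested. Higher were 3 of the 8 (IFNGR2, IRF1, GBP3) against 32.5%. Among the 8 genes with enough reads for the test, 6 had groups that did not overlap. Such separation was found for 68.7% of all genes tested. GBP4 and CIITA had too few reads to be tested. The median log2 fold change of the 8 was -0.15, beside 0.0043 over all 13843 genes tested, and 4 of the 8 values were negative and 4 positive. Every library is shown in the plot of TPM by gene.

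**Figure D1:**
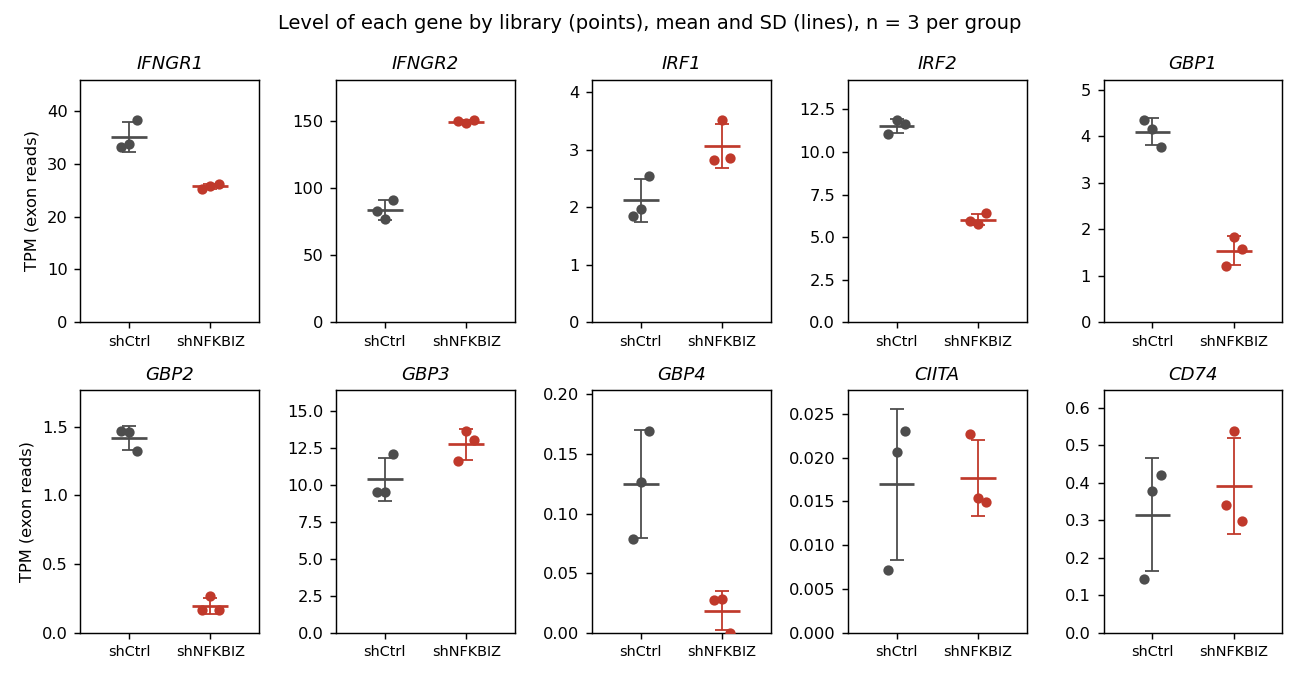
Level of each of the 10 genes in TPM (y axis, from 0, scale set per gene) in the 3 shCtrl and 3 shNFKBIZ libraries (points), with mean and SD. GBP2 lay between 1.32 and 1.47 TPM in shCtrl and between 0.163 and 0.265 in shNFKBIZ, while GBP3 overlapped between the groups.

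The receptor chains moved apart. IFNGR1 (ENSG00000027697, chr6:137197483-137219449), the ligand-binding chain, had 33.2, 33.8 and 38.3 TPM with shCtrl and 25.2, 25.9 and 26.1 TPM with shNFKBIZ. All 3 knockdown libraries were lower than every control library. The means were 35.1 ± 2.81 and 25.7 ± 0.508 TPM (SD, n = 3), a log2 difference of -0.53 (SE 0.0590, edgeR adjusted P = 7.5e-08), which is under 2-fold. IFNGR2 (ENSG00000159128, chr21:33403413-33479348), the chain that recruits JAK2, had 82.7, 77.0 and 91.4 TPM with shCtrl and 149.7, 148.6 and 150.7 TPM with shNFKBIZ. The knockdown libraries were again separate from the controls, in the other direction. Its log2 difference was 0.76 (SE 0.0473, adjusted P = 5.07e-12), a 1.69-fold difference that also stayed under 2-fold. IFNGR2 overlaps TMEM50B on the other strand, and reads were counted without regard to strand. TMEM50B had 488 to 1098 exon reads and a log2 difference of 1.09 (adjusted P = 7.43e-14). How far reads of that gene enter the IFNGR2 count was not tested.

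The ratio of the chains within a library does not depend on scaling between libraries. Per base of exon, IFNGR2 exceeded IFNGR1 by 2.49, 2.28 and 2.39 times with shCtrl and by 5.95, 5.74 and 5.76 times with shNFKBIZ. The mean ratio was 2.39 ± 0.105 with shCtrl and 5.82 ± 0.114 with shNFKBIZ, 2.44-fold apart, with no overlap. An exact two-sided permutation test gave P = 0.1, the smallest value that 3 against 3 libraries allow, and the same P holds for each of the 4 ratios given here. These ratios were chosen after the values had been seen.

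The transcription factors also differed in opposite directions. IRF1 (ENSG00000125347, chr5:132440440-132508719), the activator, was a low-level gene with 141, 155 and 180 exon reads with shCtrl and 203, 248 and 209 with shNFKBIZ. In TPM these were 1.85, 1.97 and 2.545 against 2.83, 3.52 and 2.86, and the groups did not overlap. The log2 difference was 0.46 (SE 0.114, adjusted P = 0.00143), under 2-fold. Its row overlaps IRF1-AS1 (17 to 35 exon reads, log2 fold change -0.50, adjusted P = 0.0922) and ENSG00000283782 (379 to 572 exon reads, log2 fold change 0.37, adjusted P = 0.0231), both on the other strand. Reads of these genes cannot be told apart from IRF1 where they overlap.

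IRF2 (ENSG00000168310, chr4:184385702-184474558), the repressor of the pair, had 463, 513 and 452 exon reads with shCtrl and 233, 223 and 256 with shNFKBIZ. In TPM these were 11.1, 11.9 and 11.7 against 5.92, 5.77 and 6.40, so the groups lay far apart compared with the spread within them. IRF2 fell by 1.02 on the log2 scale (SE 0.0754, 95% interval -1.16 to -0.87, edgeR adjusted P = 9.86e-11). At 2.02-fold it passed the fold limit narrowly. The adjusted P stayed at or under 0.05 in all 17 alternatives, but in 5 of them the change was under 2-fold, the smallest being -0.86 with exon and intron reads together. The others of those 5 were exon-exon reads (-0.87), scaling by library size alone (-0.93), and the fits without shCtrl replicate 2 (-0.99) or shNFKBIZ replicate 2 (-0.97). The IRF1 to IRF2 ratio per base of exon was 0.167, 0.166 and 0.218 with shCtrl and 0.478, 0.610 and 0.448 with shNFKBIZ, 2.78-fold apart in the mean and without overlap.

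**Figure D2:**
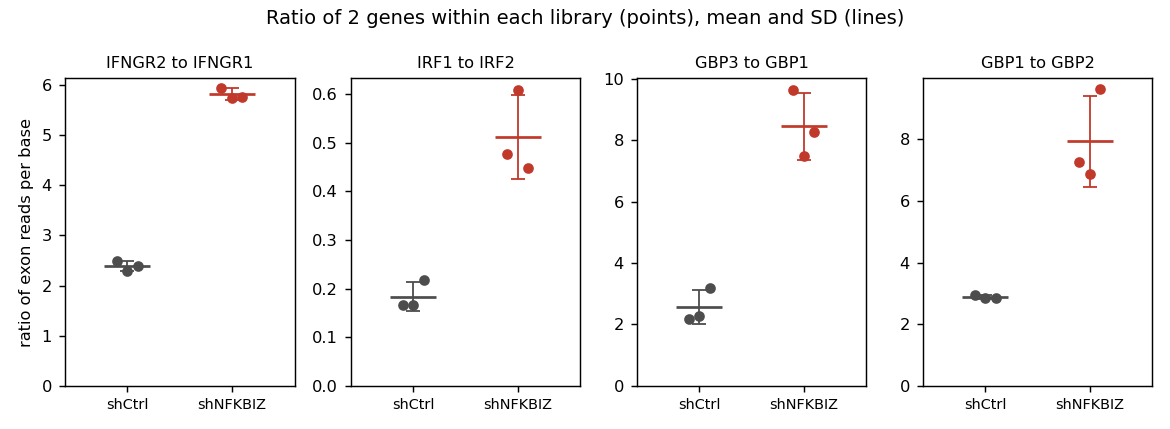
Ratio of exon reads per base between 2 genes of the same library (y axis, from 0) for IFNGR2 to IFNGR1, IRF1 to IRF2, GBP3 to GBP1 and GBP1 to GBP2, with mean and SD of 3 libraries. In all 4 panels every shNFKBIZ library lies above every shCtrl library.

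The GBPs did not move as a family: GBP1 and GBP2 fell, GBP3 overlapped between the groups, and GBP4 was at the edge of detection. GBP1 (ENSG00000117228, chr1:89051882-89065360), the GTPase that first coats its targets, had 165, 163 and 133 exon reads with shCtrl and 43, 64 and 57 with shNFKBIZ. In TPM these were 4.35, 4.16 and 3.78 against 1.20, 1.82 and 1.57. The lowest control library was above the highest knockdown library. GBP1 fell by 1.50 on the log2 scale (SE 0.145, 2.83-fold, adjusted P = 7.48e-09).

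GBP2 (ENSG00000162645, chr1:89106132-89150456), a prenylated family member that acts at membranes, had 66, 68 and 55 exon reads with shCtrl and 7, 11 and 7 with shNFKBIZ. Summed over libraries this was 189 against 25 reads. After scaling for library size the ratio was 0.139 (exact 95% interval 0.0880 to 0.212, counting error only). GBP2 fell by 2.91 on the log2 scale (SE 0.253, 7.53-fold, adjusted P = 1.4e-09), more than any other of the 8 genes tested. The counts are low, but the control libraries lay between 1.32 and 1.47 TPM and the knockdown libraries between 0.163 and 0.265.

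GBP3 (ENSG00000117226, chr1:89006679-89022894) had 253, 262 and 298 exon reads with shCtrl and 291, 336 and 331 with shNFKBIZ. In TPM the control library at 12.1 exceeded the knockdown library at 11.6, so the groups overlapped. The log2 difference was 0.22 (SE 0.0904, edgeR adjusted P = 0.0372), and the adjusted P ranged from 0.0058 to 0.167 over the alternatives. With DESeq2 it was 0.109, with exon-exon reads 0.0546, and it also passed 0.05 when shCtrl replicate 1 (0.167), shCtrl replicate 2 (0.151), shNFKBIZ replicate 2 (0.116) or shNFKBIZ replicate 3 (0.107) was left out.

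GBP4 (ENSG00000162654, chr1:89181144-89198942) had 3, 5 and 6 exon reads with shCtrl and 1, 1 and 0 with shNFKBIZ, too few for the test. The summed counts were 14 against 2, a scaled ratio of 0.151 with an exact 95% interval of 0.0166 to 0.656 that covers counting error only. With no filter on low counts GBP4 entered the edgeR fit and passed the threshold (-2.62, adjusted P = 0.0194).

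The GBPs are close relatives, so shared reads were examined. GBP1 and GBP3 were 91.6% identical over their aligned coding bases, GBP1 and GBP2 84.2%, and GBP4 between 72.7% and 74.9% identical to these 3. The 50-base stretches of transcripts were compared among GBP1 to GBP5 only, and other GBPs were not searched. The share also found in another of these genes was 3.25% for GBP1, 0.62% for GBP2, 3.89% for GBP3 and 0.0811% for GBP4. GBP1 and GBP3 shared most with each other. Reads that mapped to 1 place made up 95.0% of the exon reads of GBP1, 98.6% of GBP2 and 98.9% of GBP3. GBP1 and GBP3, the closest pair, had log2 values of opposite sign. The GBP3 to GBP1 ratio per base was 2.18, 2.29 and 3.19 with shCtrl and 9.64, 7.48 and 8.27 with shNFKBIZ, 3.34-fold apart. The GBP1 to GBP2 ratio was 2.96, 2.84 and 2.86 with shCtrl and 7.27, 6.89 and 9.64 with shNFKBIZ, 2.72-fold apart.

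The genes sit side by side on chromosome 1. Within 100 kb of GBP1, GBP2, GBP3 or GBP4 lie 13 annotated genes, these included. Of the 13 genes, 8 are protein coding, 6 had enough reads for the test, and 3 were past the threshold: GBP1, GBP2 and GBP5, all lower. Over all genes tested, 5.12% were past it downwards and 3.84% upwards. GBP1 and GBP2 are already counted above. GBP5 (chr1:89256189-89272860), a GTPase known for promoting inflammasome assembly, had 39, 56 and 49 exon reads with shCtrl and 10, 11 and 9 with shNFKBIZ. Its log2 difference was -2.26 (SE 0.264, adjusted P = 1.36e-07). At the other end of the cluster KYAT3 (log2 fold change 0.05, adjusted P = 0.545) and RBMXL1 (-0.14, adjusted P = 0.0351) flank GBP3. GBP7 was listed at 0 in all shCtrl libraries and at 2, 0 and 3 reads with shNFKBIZ. In the plot of the cluster the 3 genes past the threshold lie on 1 side of GBP3, as do all other GBPs of the cluster whatever their change.

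**Figure D3:**
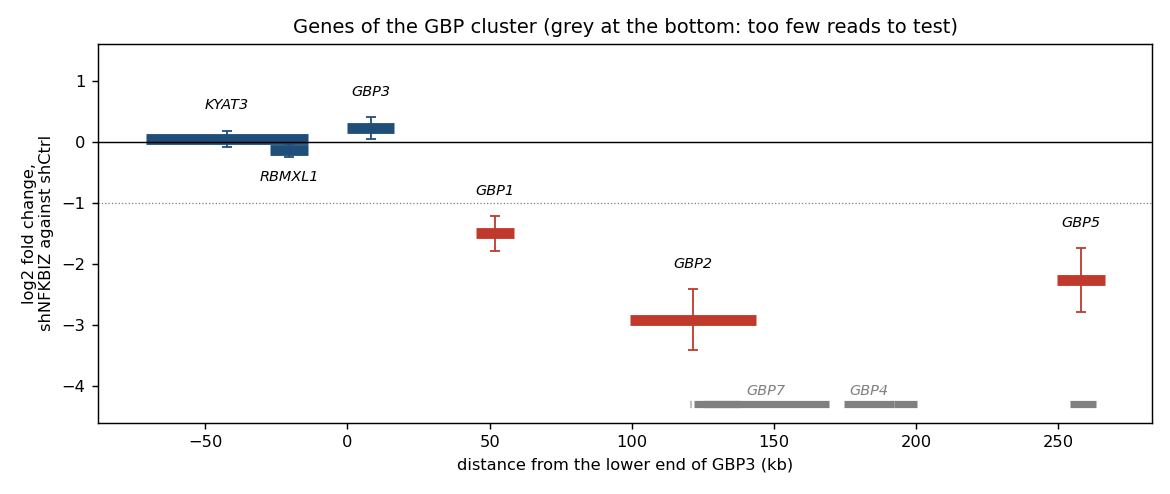
Genes within 100 kb of GBP1 to GBP4, with the distance from the lower end of GBP3 in kb (x axis) and the log2 fold change, shNFKBIZ against shCtrl (y axis, error bars 95% interval, dotted line 2-fold). GBP1, GBP2 and GBP5 (red) lie below the 2-fold line, KYAT3, RBMXL1 and GBP3 (blue) lie near 0, and untested genes are drawn in grey at the bottom.

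The class II branch was close to silent in both groups. CIITA (ENSG00000179583, chr16:10866222-10943021) had 1, 3 and 3 exon reads with shCtrl and 3, 2 and 2 with shNFKBIZ, 7 in each group. The scaled ratio was 1.05 with an exact 95% interval of 0.315 to 3.52 for counting error only, which leaves room for a change of 3-fold in either direction at this depth. CIITA overlaps DEXI, which had 438 to 627 exon reads, on the other strand. CD74 (ENSG00000019582, chr5:150401637-150412969) had 4, 11 and 11 exon reads with shCtrl and 9, 14 and 8 with shNFKBIZ. Its log2 difference was 0.24 (SE 0.410, 95% interval -0.57 to 1.04, edgeR adjusted P = 0.631). No fragment of CD74 spanned an exon junction in any library.

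In shCtrl the mean levels in TPM ran from IFNGR2 (83.7) and IFNGR1 (35.1) through IRF2 (11.5), GBP3 (10.4), GBP1 (4.09), IRF1 (2.12) and GBP2 (1.42) to CD74 (0.314), GBP4 (0.125) and CIITA (0.017). Neighbours overlapped between libraries for IRF2 and GBP3 and for CD74 and GBP4. In shNFKBIZ the mean levels in TPM gave GBP3 (12.7) above IRF2 (6.03), IRF1 (3.07) above GBP1 (1.53), and CD74 (0.392) above GBP2 (0.198). There GBP4 (0.019) and CIITA (0.018) overlapped.

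Fragments that span an exon junction, and fragments in introns, give 2 further readouts of the same libraries. Junction fragments come from spliced RNA, and intron fragments mostly from unspliced RNA. On junction fragments 7 of the genes could be tested, and each had the same sign as on exon reads. Junction fragments are part of the exon reads, so this agreement is not independent. GBP1 had 39, 45 and 31 such fragments with shCtrl and 11, 14 and 10 with shNFKBIZ, a log2 difference of -1.67 (edgeR adjusted P = 6.79e-07). GBP2 had 28, 20 and 26 against 4, 3 and 3, a log2 difference of -2.81 (adjusted P = 3.02e-08). IFNGR2 had 378, 365 and 386 against 689, 680 and 705, a log2 difference of 0.91 (adjusted P = 6.71e-18). Junction fragments of IRF2 gave -0.87 (adjusted P = 2.53e-07), those of IFNGR1 -0.57 (adjusted P = 1.9e-05) and those of IRF1 0.49 (adjusted P = 0.0301).

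On intron reads 5 of the genes could be tested and 3 had an adjusted P of at most 0.05, against 38.8% of all genes tested on them. The targeted gene was lower in introns too. NFKBIZ had 252, 251 and 271 intron reads with shCtrl and 135, 122 and 125 with shNFKBIZ. Its log2 difference was -1.11 (edgeR adjusted P = 9.83e-12), and the reason was not tested. IFNGR2 had 231, 270 and 232 intron reads with shCtrl and 339, 369 and 324 with shNFKBIZ, a log2 difference of 0.40 (adjusted P = 9.68e-05). How far reads of overlapping genes on the other strand enter the intron counts of IFNGR2 (TMEM50B) and IRF1 (IRF1-AS1, ENSG00000283782) was not tested. GBP3 had 35, 32 and 25 against 46, 55 and 59, a log2 difference of 0.71 (adjusted P = 0.00347). The intron reads of GBP3 thus separated the groups, which its exon reads did not. IRF2, in contrast, had 44, 69 and 55 intron reads with shCtrl and 65, 64 and 52 with shNFKBIZ, a log2 difference of 0.02 (SE 0.168, adjusted P = 0.945). IFNGR1 had 77, 88 and 86 against 80, 64 and 64, a log2 difference of -0.36 (edgeR adjusted P = 0.0468). That call was lost in 6 of 10 alternatives, with an adjusted P of up to 0.183 when shNFKBIZ replicate 2 was left out. IRF1 had 16, 20 and 9 intron reads against 7, 14 and 1, a log2 difference of -1.11 (SE 0.456, adjusted P = 0.0557). In 4 of 10 alternatives it passed 0.05, with unique reads (0.0234), with a replicate block (0.0328), without shCtrl replicate 3 (0.0303) and without shNFKBIZ replicate 2 (0.00829), when the value was -1.93. Without shNFKBIZ replicate 3 the value was -0.60. GBP1 and GBP2 had too few intron reads for the test, at most 2 and 6 per library.

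The difference between the exon and the intron change was tested in 1 model with the library as a block. It had an adjusted P of at most 0.05 for 3 of 5 genes, against 29.1% of all genes tested. For IRF2 the exon change was lower than the intron change by a log2 value of -0.98 (SE 0.178, edgeR adjusted P = 5.93e-06). For IFNGR2 it was higher by 0.41 (SE 0.0885, adjusted P = 1.29e-04), and for IRF1 higher by 1.64 (SE 0.421, adjusted P = 0.00212), the last on 1 to 20 intron reads per library. With 1 library left out the IRF1 value lay between 1.17 (without shNFKBIZ replicate 3) and 2.37 (without shNFKBIZ replicate 2), and its adjusted P reached 0.043. For IFNGR1 the difference was -0.11 (adjusted P = 0.624) and for GBP3 -0.43 (adjusted P = 0.116), neither past the threshold. The overlaps of IFNGR2 and IRF1 with genes on the other strand limit their values here too.

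**Figure D4:**
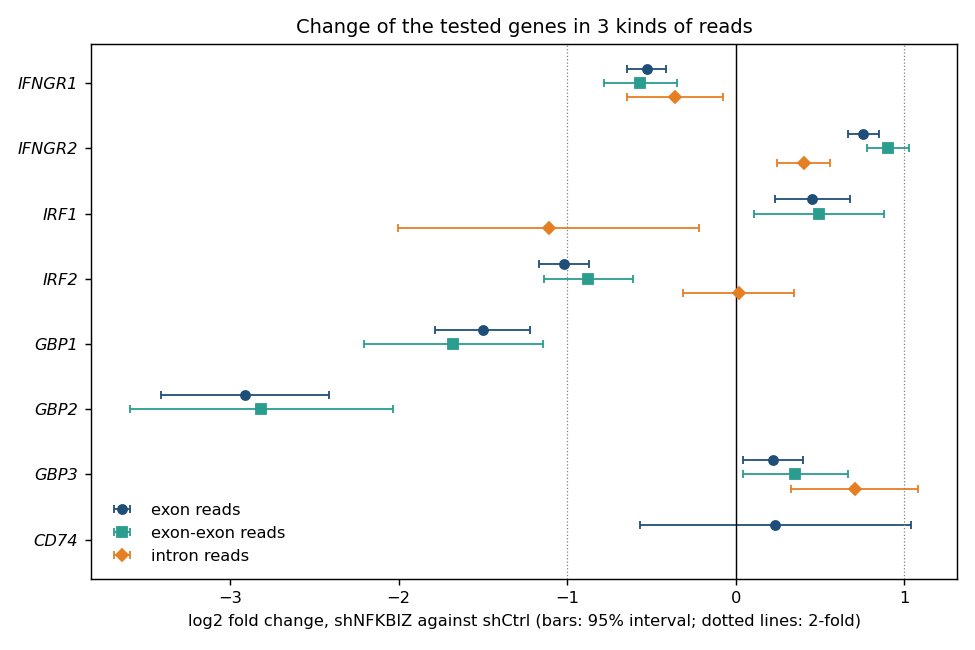
Log2 fold change, shNFKBIZ against shCtrl (x axis, bars 95% interval, dotted lines 2-fold), of the 8 tested genes in exon, exon-exon and intron reads. Exon and intron points lie apart for IRF2 (-1.02 and 0.02), and GBP1 and GBP2 lie below the lower 2-fold line in exon and exon-exon reads.

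Other genes of the pathway were counted in lists compiled by hand. The lists were chosen with earlier results of these data known, so their counts and medians are a description and not independent support. Over all genes tested, 32.8% were lower and 32.5% higher at an adjusted P of at most 0.05, which is the share to set beside each count of lower and higher genes. For counts past the threshold, which also asks for a 2-fold change, the shares were 5.12% downwards and 3.84% upwards. Of 16 genes of receptor signalling, 14 were tested: 7 were lower and 1 was higher at an adjusted P of at most 0.05, with a median log2 fold change of -0.16. SOCS3, a feedback inhibitor of cytokine signalling, was the member past the threshold. It had 2185, 2382 and 2206 exon reads with shCtrl and 555, 555 and 535 with shNFKBIZ, a log2 difference of -2.06 (edgeR adjusted P = 2.87e-19). The ligand gene, IFNG, was listed at 0 reads in every library, and a level too low for this depth would not be seen. JAK1 had a log2 difference of -0.42 (adjusted P = 2.08e-09) and JAK2 of -0.07 (adjusted P = 0.26), both under 2-fold.

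The next list held 7 other IRF genes and 3 genes of IRF2-binding proteins, and of these 10 genes 6 were tested, 4 were lower and 1 was higher, with a median of -0.25. Of the 7 IRF genes, 3 were tested (IRF3, IRF7 and IRF9) and all 3 were lower, IRF3 by a log2 value of -0.35 (adjusted P = 1.1e-06), and the higher gene was IRF2BP1 (0.26, adjusted P = 0.00099). IRF7, the main inducer of type I interferon genes, was past the threshold with 249, 296 and 266 exon reads with shCtrl and 108, 100 and 97 with shNFKBIZ, a log2 difference of -1.42 (adjusted P = 6.07e-11). IRF9, the DNA-binding subunit of the type I interferon factor ISGF3, had a log2 difference of -0.63 (adjusted P = 5.23e-07), under 2-fold. Of its reads 28.9% mapped to 1 place, and on those the value was -0.42 (adjusted P = 0.0138). IRF8 had no read in any library. Of 9 other GBPs and interferon-inducible GTPases, 4 were tested with a median of -1.51, and 3 were past the threshold, all lower: GBP5, MX1 (-1.53, adjusted P = 3.56e-09) and MX2 (-1.49, adjusted P = 0.00352). The fourth, IRGQ, was higher (0.50, adjusted P = 6.23e-08), under 2-fold. MX1 and MX2 are antiviral GTPases known chiefly as targets of type I interferon.

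Of 20 MHC class II genes and regulators, 9 were tested, 4 were lower and 3 were higher, with a median log2 fold change of 0.10. Only HLA-DOB, a chain of a modulator of peptide loading, was past the threshold, with 2, 6 and 9 exon reads with shCtrl and 15, 23 and 12 with shNFKBIZ (log2 fold change 1.52, SE 0.427, adjusted P = 0.00368). Of its reads, 82.1% mapped to 1 place, and these (2, 6 and 9 against 11, 17 and 10) were too few for the test, so the call was lost on unique reads. HLA-DRA, a class II α chain with which the invariant chain pairs, had at most 4 reads per library. RFX5, which binds class II promoters together with CIITA, had a log2 difference of -0.45 (adjusted P = 3.82e-08).

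The broadest list held 51 names of genes known to be induced by interferon-γ, of which 50 matched a gene and 35 were tested. At an adjusted P of at most 0.05, 22 were lower and 9 were higher. The median log2 fold change was -0.44, and 8 were past the threshold, all lower. They ranged from GBP5 (-2.26) and APOL6 (-1.96, adjusted P = 9.54e-08) to APOL2 (-1.03, adjusted P = 9.96e-10), both apolipoprotein L genes. SECTM1, CD274, PSMB9 and UBE2L6 were among the others. CD274 encodes the checkpoint ligand PD-L1 and PSMB9 a subunit of the immunoproteasome. The chemokine genes CXCL9 and CXCL10 had at most 1 and 3 reads per library. Across all 5 lists 64 genes were tested, 12 were past the threshold downwards and 1 upwards, and the median log2 fold change was -0.24. Of all genes tested, 5.12% were past it downwards and 3.84% upwards.

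**Figure D5:**
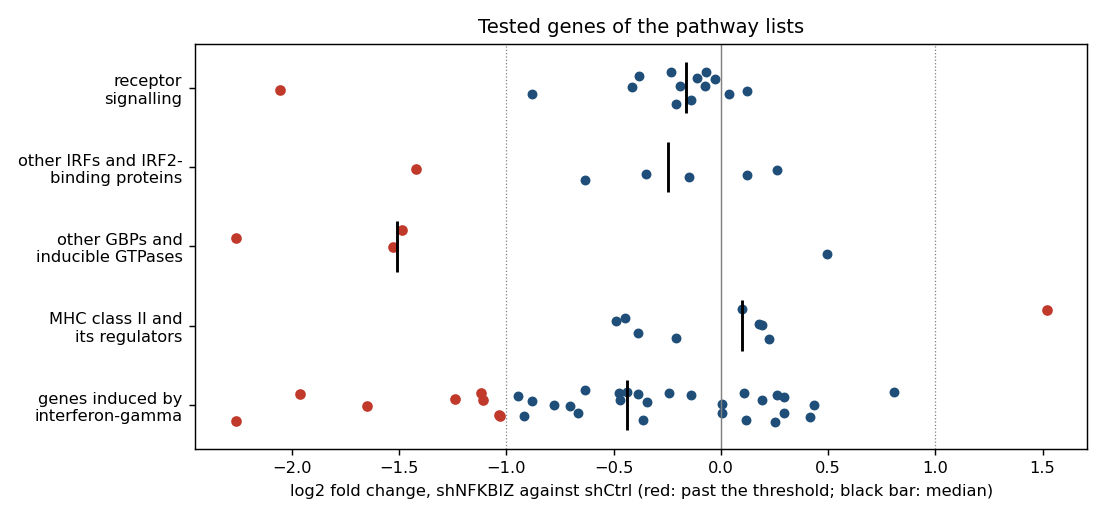
Log2 fold change, shNFKBIZ against shCtrl (x axis, dotted lines 2-fold), of the tested genes in 5 pathway lists (rows, the second holding other IRFs and IRF2-binding proteins), with genes past the threshold in red and the median as a black bar. Medians run from -1.51 (other GBPs and inducible GTPases, 4 genes) to 0.10 (MHC class II, 9 genes), and a gene in 2 lists is drawn in both.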

How the data were processed

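RNA-seq reads of LOX-IMVI cells were mapped by the authors to hg38 (GRCh38) in CLC Genomics Workbench under default settings. Fragments were counted per gene without regard to strand, with reads of several hits included. The deposited tables hold, per the file headers, whole-number counts of fragments per gene and library, for exon, intron and exon-exon reads, total and unique. Exon-exon reads are part of the exon reads. Their RPKM and TPM columns were not used, and TPM was calculated anew from the exon counts and the length of the exons. Groups and replicate numbers came from the sample titles. The study describes 3 independent experiments per group, which the labels do not state, so P values measure the spread between these libraries.

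The groups were compared on total exon reads in edgeR 4.0.16 under R 4.3.3 by its quasi-likelihood test (filterByExpr, TMM factors, robust estimation, no replicate block), two-sided, with Benjamini-Hochberg adjustment over 13843 genes. The threshold was an adjusted P of at most 0.05 and at least a 2-fold change. Fold changes are shNFKBIZ against shCtrl. The same fit was run on intron reads and on exon-exon reads. Exon and intron changes were compared by an interaction term in a model with the library as a block. The scripts were tested on simulated counts. Exon-exon reads and the ratios within libraries were added after the data had been seen.

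Alternatives were RLE factors, library size alone, no filter, at least 10 counts in every library, DESeq2 1.42.0, the likelihood ratio test of edgeR, unique exon reads, total gene reads, leaving out the 10 most abundant genes, a replicate block, and each library left out in turn. For the counts of genes past the threshold, no fold limit and a TPM difference above 4 were also tried. Replicate numbers did not pair the libraries (correlations of same-numbered deviations 0.0207, 0.0561 and 0.0288).

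Named genes were all 10 members, NFKBIZ, in each list the lowest and highest gene past the threshold with a mean of at least 50 reads, any gene behind a count of 5 or fewer, and genes of the GBP cluster past the threshold. Further genes were named after their values were seen. Some genes of the lists are not reported here. Members and lists were chosen with earlier results of these data known. Coordinates are those of the files, and all 10 members had identical coordinates in GENCODE release 44. All 8 RefSeq promoters of members were identical to hg38.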

Additional observations from a re-analysis of the deposited data

How the results depend on the processing

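Of 150 log2 fold changes on exon, exon-exon or total gene reads (8 members and NFKBIZ under up to 17 alternatives), 143 kept their direction and their side of the threshold. The 7 others were 5 of IRF2, described above, and 2 of CD74, which ranged from -0.11 to 0.47 when 1 library was left out and was negative without shCtrl replicate 1 (-0.11) or shNFKBIZ replicate 2 (-0.04). GBP1 ranged from -1.67 to -1.36, GBP2 from -3.16 to -2.80, IFNGR1 from -0.57 to -0.44, IFNGR2 from 0.71 to 0.91 and IRF1 from 0.36 to 0.59. GBP3 ranged from 0.17 to 0.35, and its adjusted P was at or under 0.05 in 11 of 17 alternatives. Because the threshold includes the fold limit, the count of 143 does not register such a loss for a gene under 2-fold. The 3 members past the threshold became 4 with no filter (GBP4 added), 7 with no fold limit and 1 (IRF2) with a TPM difference above 4, and 2 or 3 with 1 library left out. The 13 list genes past the threshold became 7 with exon-exon reads, 52 with no fold limit (37 lower, 15 higher) and 8 with a TPM difference above 4 (all lower), 12 with unique exon reads and 10 with at least 10 counts in every library (all lower in these and with exon-exon reads), and 12 to 15 with 1 library left out. For intron reads, IRF2 ranged from -0.13 to 0.16 with 1 library left out, and IRF1 from -1.93 to -0.60. The difference of exon and intron change of IFNGR1 ranged from -0.19 to 0.034. The cause of these shifts was not tested.

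With a replicate block 3 members were past the threshold and NFKBIZ changed by -1.78. The block moved the intron call of IFNGR1 above 0.05 (-0.36, edgeR adjusted P = 0.0546) and that of IRF1 below it (-1.14, adjusted P = 0.0328). Library size alone moved the median log2 fold change of all genes to 0.0937. GBP2 and CD74 had no value with at least 10 counts in every library. Low reads limit GBP4, CIITA and CD74 in every readout, and GBP1 and GBP2 in introns.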
